A study of Mus musculus with 4 samples.

Results

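The thymocytes described here came from Rag1-deficient NOD mice at 6.5 weeks of age and were set against thymocytes of Rag1-deficient NOD mice at 4 weeks. Each age was 1 RNA-seq library, so these were 2 of the 4 libraries of the series. The other libraries were 1 each from Rag1-deficient B6 mice at 4 and at 7 weeks, and they served as background. All 4 groups carried the Rag1-/- genotype, cells were sorted thymocytes lysed in Trizol, and no treatment was named in the labels. The title of the series concerns failure of an early T-cell checkpoint and the start of leukaemia in Rag1-deficient NOD mice. The members were all genes with a deposited RPKM value (reads per kilobase of gene, scaled to sequencing depth), joined by gene identifier, without the unnamed regions of the files. Of 33114 named genes, 8646 had an RPKM of 5 or more in either NOD library and were compared. With 1 library a side there was no replicate, no p-value and no test, so each ratio compares 2 libraries rather than 2 ages. Ratios that a statement turns on are given with their 95% exact (Clopper-Pearson) intervals, which cover counting error only. Neither the sort markers nor the number of mice behind a library are given in the sources used here.

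The Rag1 protein is part of the enzyme that joins the segments of T-cell receptor genes. Without it, thymocytes stop at the double negative stage, before surface CD4 and CD8 appear, because no T-cell receptor beta chain can be made. NOD is an inbred strain prone to autoimmune diabetes. Lmo2, Lyl1, Hhex and Kit are genes of blood progenitors that are normally shut off as thymocytes commit to the T lineage, and Lmo2 is a known oncogene of T-cell acute lymphoblastic leukaemia (T-ALL). Commitment itself depends on Notch1 signalling and on factors such as Bcl11b, Tcf7 and Gata3.

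The depth recovered from the RPKM steps was 17290000 reads at NOD week 4 and 24110000 at NOD week 6.5, and 17050000 and 21230000 in the B6 libraries of week 4 and week 7. From 11841 to 12278 genes per library reached an RPKM of 1. Rag1 transcript was measured in every library, at RPKM 121 and 91.7 at NOD weeks 4 and 6.5 and at 133 and 108 at B6 weeks 4 and 7. The labels do not give the deleted part of the gene, so that level is no check of the knockout. Of the genes that define other cells, Cd8a and Cd8b1 were at or under 0.24 in both NOD libraries, and the myeloid enzyme gene Mpo at or under 0.32. The B-cell factor gene Pax5 and the thymic epithelial gene Foxn1 were listed at 0. Other such genes were measured at NOD weeks 4 and 6.5. Cd4 was at 1.46 and 2.78, the IgM gene Igh-6 at 11.4 and 29.8, the epithelial gene Tacstd1 (Epcam) at 26.8 and 13.2 and the globin gene Hba-a1 at 29.6 and 4.12. The purity of the sort was not tested. In the B6 pair the age ratio moved with the GC content of the gene, from a median log2 of 0.03 over the group of genes lowest in GC to -0.76 over the group highest in GC. In NOD the same medians were -0.04 and -0.15. RPKM values of single genes are given as deposited, and the B6 ratios of groups of genes also with this GC trend removed.

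**Figure D1:**
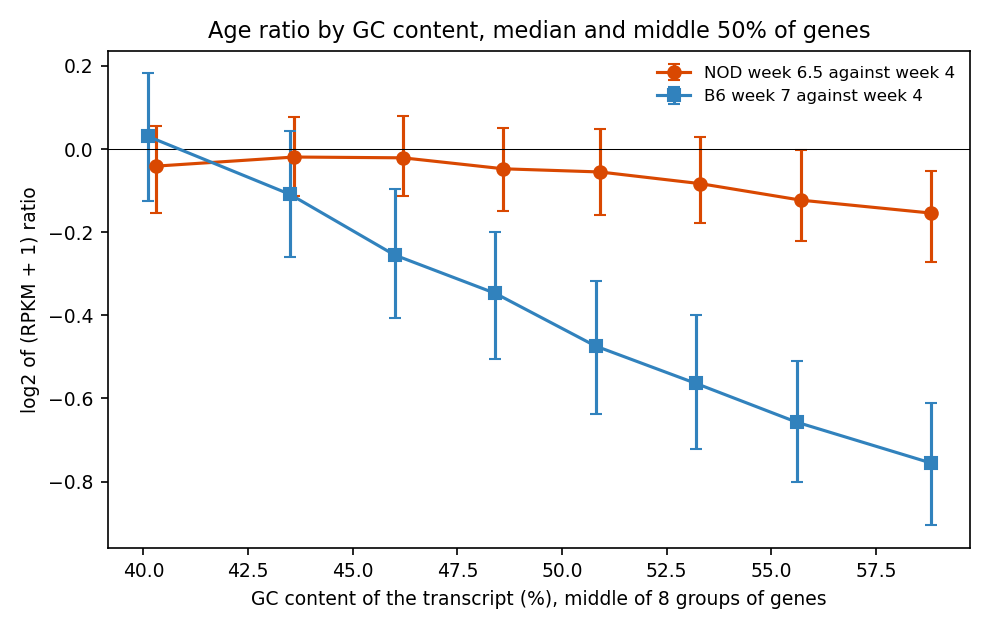
Median log2 ratio of (RPKM + 1), later over earlier age, in 8 groups of genes by GC content of the transcript in percent, with bars from the 25th to the 75th percentile of genes. The NOD medians (orange) lie between -0.15 and -0.02, while the B6 medians (blue) go from 0.03 down to -0.76.

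Most genes had nearly the same level in both NOD libraries. Ratios were taken on log2(RPKM + 1), which understates the ratio of low genes, and 97% of the 8646 genes lay within 1.5-fold. The median log2 ratio was -0.06. On this scale 59 genes (0.682%) were 2-fold or more higher at week 6.5 and 12 (0.139%) were 2-fold or more lower. With genes of under 10% shared reads only (reads that map to more than 1 place), 47 were higher and 7 lower of 6266. The highest genes outside the progenitor factors were the prion-like gene Sprn, the Notch-ligand-like gene Dlk1, the integrin gene Itgb7, the metallothionein genes Mt2 and Mt1, the claudin gene Cldn2, the mast cell protease gene Cpa3, the trafficking regulator Klf2 and the granzyme gene Gzmb. The lowest were the globin genes Hba-a1 and Hbb-b1 and the imprinted RNA H19. Just inside the 2-fold mark were Bex1 at a log2 ratio of 1.0 and Atp2b4 and Atp1b3 at 1.01, and just outside it was Coro7 at 0.996. On the lower side, Jarid1d (Kdm5d) at -1.08 was the last inside and Tacstd1 (Epcam) at -0.97 the first outside.

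**Figure D2:**
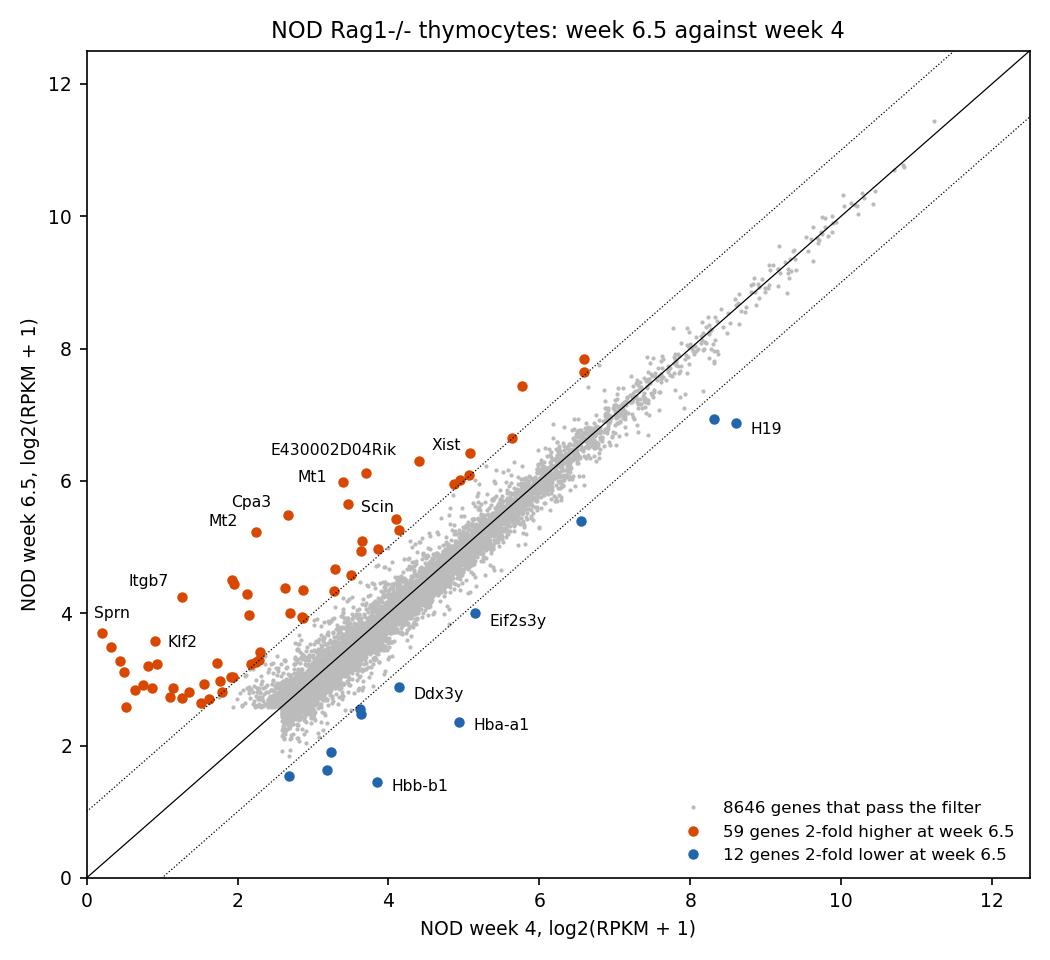
NOD week 6.5 against NOD week 4 for 8646 genes, both axes in log2(RPKM + 1). Orange points mark the 59 genes higher and blue points the 12 genes lower by 2-fold (dotted lines), and the other points lie along the diagonal.

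The same rule gave a different split in B6. Of 8582 genes, 12 (0.14%) were 2-fold higher and 328 (3.82%) 2-fold lower at week 7 than at week 4, with a median log2 ratio of -0.38. Named genes held 11103755 of 21230000 reads at B6 week 7, a smaller share than the 11399027 of 17050000 at B6 week 4. In NOD they held 10912741 of 17290000 at week 4 and 14743059 of 24110000 at week 6.5. With the median ratio set to 0, the B6 counts were 72 higher and 53 lower. The part of the read share in the B6 ratios was not tested. With the GC trend removed, the B6 counts were 10 higher and 15 lower and the NOD counts 53 higher and 10 lower. The NOD and B6 pairs share no library. Of the 59 genes higher in NOD, 32 passed the filter in B6, and of the 12 lower ones 9 did. Mt1 was the single gene of these called higher in both, which is 1.69% of the NOD calls and 8.33% of the B6 calls, and with the GC trend of B6 removed Cdkn2c joined it. Mt2, at a B6 log2 ratio of 1.48 (5.65-fold, interval 2.38 to 16.2), stayed under the filter there with 3.56 as its higher RPKM. Hba-a1, Hbb-b1 and EG621967 were lower in both, or 25% of the NOD and 0.915% of the B6 calls, and with the GC trend of B6 removed Hba-a1 was still lower in both, while Hbb-b1 and EG621967 had no GC value and could not be compared. For 416 of 8200 genes (5.07%) the NOD and B6 log2 ratios lay 1 or more apart, and for 93 with the GC trend removed in both. That difference was not tested, and the later ages, 6.5 and 7 weeks, differ between the strains.

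The 4 progenitor genes named above were all among the 59. In NOD, Lyl1 was at RPKM 0.90 at week 4 and 8.39 at week 6.5, Hhex at 0.68 and 6.5, Lmo2 at 0.44 and 5.0, and Kit at 6.33 and 19.4. At B6 weeks 4 and 7, Lyl1 was at 3.84 and 1.47, Hhex at 1.69 and 0.64, Lmo2 at 0.31 and 0.11, and Kit at 7.62 and 4.25. For Lyl1, NOD week 4 was the lowest of the 4 libraries. Its NOD week 6.5 value was under 2-fold above the higher B6 value on log2(RPKM + 1). The NOD intervals of Lyl1, Hhex, Lmo2 and Kit started at 6.34-fold, 6.09-fold, 6.5-fold and 2.79-fold. Of 26 other early progenitor genes, 7 passed the filter and 2 of them were 2-fold higher, against 0.682% of all 8646 genes. This list too was drawn up with earlier results known, so nothing is read from that count. The 2 were Nfe2, a basic leucine zipper factor of the megakaryocyte and erythroid lineages, and Mef2c, a factor of lymphoid progenitors that is also a T-ALL oncogene. Nfe2 was at 11.5 at NOD week 4 and 33.0 at NOD week 6.5, against 19.5 and 12.2 at B6 weeks 4 and 7, so NOD week 4 was the lowest and NOD week 6.5 the highest of the 4 libraries (2.86-fold, interval 2.53 to 3.23). Mef2c was at 1.39 and 5.61 in NOD and 0.84 and 2.14 in B6 (4.04-fold in NOD, interval 3.06 to 5.46). Runx2 at 1.60-fold, Erg at 1.27-fold, Etv6 at 1.16-fold and Fli1 at 1.09-fold lay below the mark, and the MYC family gene Mycn was at 0.797-fold. The stem cell gene Tal1 was at 0.16 and 0.18, Meis1 at 0.02 and 0.04, and Hoxa9 was listed at 0 in both NOD libraries. This higher level thus did not extend to the whole list. Of its 26 members, 15 were under RPKM 1 at both NOD ages. Most genes were under that level, since 12565 of all 33114 named genes reached RPKM 1 in either NOD library.

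Cell surface and signalling genes made up 12 of the 59, a grouping by role made after the values were seen, as are those that follow. Itgb7 encodes the beta-7 integrin chain, which pairs with alpha-4 or alpha-E in lymphocyte homing to the gut. It was at RPKM 1.41 at NOD week 4 and 18.0 at NOD week 6.5, and at 1.81 and 1.54 at B6 weeks 4 and 7, so 3 libraries were alike and the fourth stood alone (12.8-fold in NOD, interval 9.93 to 16.7). Its partner genes differed less: Itga4 was at 37.3 and 42.5 in NOD, and Itgae at 2.20 and 1.51. Klf2, a transcription factor that controls exit of T cells from the thymus, was at 0.87 and 11.0 in NOD against 0.83 and 0.86 in B6 (12.6-fold in NOD, interval 8.36 to 20.3). Edg1 (S1pr1), the sphingosine phosphate receptor of thymic exit that Klf2 is known to activate, was at 0.03 and 0.42 on 2 and 31 reads (14.0-fold, interval 2.83 to 95.9). In the list of chemokine receptors, integrins and homing genes, Itgb7 and Klf2 were the 2 of 15 members past 2-fold, against 0.682% of all 8646 genes. The list was drawn up with earlier results known, so nothing is read from that count. The list median was a log2 ratio of 0.16. The next members were the leukocyte integrin gene Itgb2 at 1.69-fold and the thymic chemokine receptor gene Ccr9 at 1.46-fold. The list of mature T cell and regulatory T cell markers, which also holds Klf2, summed to an RPKM of 220 at NOD week 4 and 289.1 at week 6.5, and to 326.7 and 350.9 in B6. Whether cells of that kind take part in the Klf2 value was not tested.

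Several receptors of lymphocytes were higher as well. Cd7, an immunoglobulin superfamily antigen of early T and NK cells, was at RPKM 0.83 and 6.29 at NOD weeks 4 and 6.5 and at 1.80 and 1.25 at B6 weeks 4 and 7 (7.58-fold in NOD, interval 4.38 to 14.2). Cd53, a tetraspanin, was at 16.2 and 41.7 in NOD and 28.1 and 34.1 in B6 (2.58-fold in NOD, interval 2.32 to 2.86). Cd6, a scavenger receptor family antigen of T cells, was at 2.46 and 6.04 in NOD and 3.72 and 2.39 in B6. Cd53 and Cd6 were the 2 of 9 tested genes of beta-selection and the double positive stage that passed 2-fold, against 0.682% of all 8646 genes. The list median was a log2 ratio of 0.10, and the interval lay above 1 for 4 members and below 1 for 3. Among the lower members, Aqp11 was at 78.4 and 60.2 and Arpp21 at 101 and 80.4 in NOD. Cd5, a receptor related to Cd6, was under the filter, at 0.64 and 3.31 in NOD and 1.90 and 0.98 in B6 (5.17-fold in NOD, interval 3.31 to 8.34). Cd2, the adhesion receptor for CD48, was at 0.86 and 3.45 in NOD and at 0.15 and 0 in B6, the latter with no read (4.01-fold in NOD, interval 2.38 to 7.17). Cd4, at 1.46 and 2.78, remained low.

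Receptors and adaptors of other signalling pathways were also high at NOD week 6.5. F2r, the thrombin receptor, was at RPKM 3.36 and 18.7 at NOD weeks 4 and 6.5 against 3.84 and 3.13 in B6, and Gpr97 (Adgrg3), an adhesion G protein-coupled receptor, was at 2.80 and 21.6 against 3.98 and 2.22. Their NOD ratios were 5.55-fold (interval 4.79 to 6.51) and 7.71-fold (interval 6.37 to 9.41). Lat2, a membrane adaptor of B and mast cells, was at 3.46 and 14.6 in NOD and 5.37 and 6.72 in B6. Rasgrp2, a guanine exchange factor that activates Rap1 and with it integrins, was at 13.6 and 30.5 in NOD and 15.6 and 9.10 in B6. Pdgfrb, a growth factor receptor of mesenchymal cells, was the exception in its position: at 1.22 and 6.33 in NOD it stayed below both B6 values, 14.3 and 7.89. The list of stromal and endothelial markers that holds Pdgfrb summed to 61.98 and 60.94 in NOD and to 85.16 and 63.44 in B6. Of its 23 genes, 4 were listed at 0 in both NOD libraries, among them Foxn1, Krt14 and Dll4. Values of 0 were common, since 21707 of all 33114 named genes were above 0 in either NOD library, so nothing is read from that count. Another 4 of the 23 passed the filter, among them the epithelial gene Tacstd1 (Epcam) at 26.8 and 13.2 in NOD.

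E430002D04Rik (Cd163l1), a scavenger receptor gene known from gamma-delta T cells, was well covered at both ages. It was at RPKM 12.0 (718 reads) at NOD week 4 and 68.3 (5684 reads) at NOD week 6.5, and at 6.71 and 7.11 in B6 (5.68-fold in NOD, interval 5.25 to 6.14). The other gamma-delta markers moved little: the variable gene Tcrg-V4 was at 287 and 251 in NOD, Sox13 at 11.1 and 11.3, the kinase gene Blk at 7.18 and 9.74, and Il17a, Il17f and Il23r were listed at 0. The list summed to 318.2 and 341.8 in NOD and to 467.8 and 517.3 in B6. Igh-6 (Ighm), the constant region of the IgM heavy chain, was at 11.4 and 29.8 in NOD and 33.8 and 23.5 in B6, so NOD week 6.5 lay between the B6 values and NOD week 4 below them. Among B-cell markers Ms4a1, Cd79a, Pax5 and Ebf1 were at or under 0.13 in both NOD libraries, and that list summed to 77.07 and 87.57.

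Both metallothionein genes, which encode small cysteine-rich proteins that bind zinc and copper and are induced by metals and glucocorticoids, were higher together. Mt1 was at RPKM 9.53 at NOD week 4 and 62.5 at NOD week 6.5, and at 2.78 and 6.69 at B6 weeks 4 and 7 (6.56-fold in NOD, interval 5.08 to 8.6). Mt2 was at 3.75 and 36.4 in NOD and 0.63 and 3.56 in B6 (9.70-fold in NOD, interval 6.92 to 14.0), with shared reads of 14% and 13%. In each strain the later library was the higher one, and NOD week 6.5 stood far above the other 3. The promoters of both genes are shown because the 2 neighbours moved together and their known regulation runs through metal response elements, whose core TGCACNC or TGCGCNC is set in capitals. The sequences are from RefSeq on GRCm38.p6, plus strand, at chr8:94178839-94179138 for Mt1 and chr8:94172368-94172667 for Mt2. They run from 250 bases before to 50 after the first start site listed for each gene, and windows of other starts were not searched.
Mt1: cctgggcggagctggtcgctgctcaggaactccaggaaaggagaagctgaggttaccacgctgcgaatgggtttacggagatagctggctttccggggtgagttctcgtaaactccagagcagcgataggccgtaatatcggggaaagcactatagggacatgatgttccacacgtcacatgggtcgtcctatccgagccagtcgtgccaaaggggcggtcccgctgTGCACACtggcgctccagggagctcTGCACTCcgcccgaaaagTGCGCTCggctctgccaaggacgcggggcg
Mt2: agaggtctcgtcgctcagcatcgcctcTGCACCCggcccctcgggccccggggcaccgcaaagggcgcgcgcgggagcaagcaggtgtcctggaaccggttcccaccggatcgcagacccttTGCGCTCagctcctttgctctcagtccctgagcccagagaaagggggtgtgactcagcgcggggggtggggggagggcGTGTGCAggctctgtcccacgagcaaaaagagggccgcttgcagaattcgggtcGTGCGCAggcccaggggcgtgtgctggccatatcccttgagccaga
A search of both strands, with overlapping matches allowed, found 3 such cores in the Mt1 window, the first at 23 bases before the listed start. It found 4 in the Mt2 window, the first at 223 bases before the listed start. Of the 59 higher genes 37 had a promoter in the table, and 15 of these (40.5%) held the core, against 37.4% of 6582 promoters of genes that passed the filter and 25.6% of all 27025. The E-box CANNTG was in 64.9% of the 37 promoters, against 61% and 72.1%. The GATA motif GATAAG was in 1 of 37 (2.7%), against 4.45% and 7.43%, and the ETS motif CCGGAAG in 1 of 37 (2.7%), against 22.5% and 9.12%. These are matches of letters within the window and were not tested.

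Secreted, junction and membrane genes best known from other tissues made up 10 of the 59. In all 10 NOD week 6.5 was the highest of the 4 libraries, against 49 of all 59 and 14.7% of all 8646 genes. That position shares the NOD values with the ratio that chose the genes, so it describes them and supports nothing. Sprn encodes Shadoo, a prion-like protein of brain. It was at RPKM 0.15 (8 reads) at NOD week 4 and 12.0 (915 reads) at NOD week 6.5, and at 0.02 and 0.10 in B6 (80.2-fold in NOD, interval 41.5 to 191). Cldn2, a claudin that forms cation channels in tight junctions, was at 0.36 and 8.74 in NOD and 0.60 and 0.42 in B6 (24.3-fold in NOD, interval 15.4 to 40.5). Slc7a8, a neutral amino acid transporter, was at 0.75 and 8.18 in NOD and 0.08 in each B6 library (10.9-fold in NOD, interval 8.29 to 14.8). Mdga1, a membrane glycoprotein of developing neurons, was at 0.56 and 6.12 in NOD and 0.81 and 0.35 in B6, also 10.9-fold. These genes were thus nearly silent in 3 libraries and well covered in the fourth.

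Dlk1 was the clearest case among imprinted genes. It encodes a membrane protein related to the Delta ligands of Notch, is expressed from the paternal chromosome, and is known from fetal tissues and preadipocytes. Dlk1 was listed at RPKM 0 at B6 week 4, at 0.03 at B6 week 7, at 0.25 (7 reads) at NOD week 4 and at 10.2 (401 reads) at NOD week 6.5 (40.7-fold in NOD, interval 19.8 to 103). Its promoter is shown as that of the second highest gene and the only one of the 37 with GATAAG, in capitals, at 163 bases before the start (chr12:109452573-109452872, GRCm38.p6, plus strand, RefSeq).
Dlk1: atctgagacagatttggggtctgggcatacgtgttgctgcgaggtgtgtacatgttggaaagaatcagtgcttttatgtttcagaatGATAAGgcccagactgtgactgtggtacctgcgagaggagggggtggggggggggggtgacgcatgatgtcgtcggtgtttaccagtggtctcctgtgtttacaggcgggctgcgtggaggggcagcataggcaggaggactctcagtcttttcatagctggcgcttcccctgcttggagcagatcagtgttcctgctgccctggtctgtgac
Imprinted genes as a list did not share that direction. Of 38 members 11 passed the filter, Dlk1 was the 1 past 2-fold higher and H19 the 1 past 2-fold lower, and the median log2 ratio was -0.11 against -0.06 over all genes. Of all 8646 genes, 0.682% were 2-fold higher and 0.139% 2-fold lower. H19, a maternally expressed RNA that neighbours Igf2, was at 388 (17550 reads) at NOD week 4 and 116 (7317 reads) at NOD week 6.5, and at 720 and 364 at B6 weeks 4 and 7 (0.299-fold in NOD, interval 0.291 to 0.307). The later library was the lower one in both strains, and NOD week 6.5 was the lowest of the 4. With the GC trend removed, the H19 log2 ratio was -1.61 in NOD and -0.315 in B6, against -1.73 and -0.983 as deposited. Its neighbour Igf2, under the filter, was at 1.52 and 0.55 in NOD and 5.29 and 2.23 in B6 (0.362-fold in NOD, interval 0.265 to 0.497). The receptor gene Igf2r was at 13.5 and 17.8 in NOD. Of the 38 members, 20 were under RPKM 1 at both NOD ages, as were most of the 33114 named genes.

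The other secreted or membrane genes of that group were more moderate. Igfbp4, which binds insulin-like growth factors, was at RPKM 8.82 and 24.4 at NOD weeks 4 and 6.5 and at 10.01 and 5.05 in B6 (2.76-fold in NOD, interval 2.43 to 3.13). Angpt1, the ligand of the Tie2 receptor, was at 5.50 and 15.0 in NOD and 10.7 and 12.3 in B6. Ddc, the enzyme that makes dopamine and serotonin, was at 1.16 and 5.63 in NOD and 3.10 and 3.48 in B6. Bpil2 (Bpifc), of the lipid-binding BPI family, was at 2.86 and 20.6 in NOD and 2.89 and 4.66 in B6, and the lipocalin gene Lcn4 at 3.90 and 9.61 against 5.23 and 3.16.

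Of the genes for granule enzymes, Cpa3 and Gzmb were past 2-fold. Cpa3, carboxypeptidase A of mast cells that is also transcribed in blood progenitors, was at RPKM 5.34 (133 reads) at NOD week 4 and 43.6 (1517 reads) at NOD week 6.5, and at 19.4 and 18.9 in B6 (8.17-fold in NOD, interval 6.85 to 9.84). It was the only 1 of the 59 with NOD week 4 at least 2-fold below both B6 libraries and NOD week 6.5 at least 2-fold above both. The mast cell, basophil and eosinophil list summed to 80.11 and 139.6 in NOD, nearly all of it Cpa3 and the proteoglycan gene Srgn (74.3 and 95.5). The other 14 of its 16 members were under RPKM 1 at both ages, as were most of the 33114 named genes. Ms4a2, Mcpt4, Mcpt6 and Tpsab1 were listed at 0. Gzmb, granzyme B of cytotoxic cells, was at 0.41 (10 reads) and 7.67 (262 reads) in NOD and at 0.41 and 0.53 in B6 (18.7-fold in NOD, interval 10.1 to 39.6). Gzma, the other main granzyme gene of these cells, was on the lower side at 75.8 and 54.0 (0.712-fold, interval 0.656 to 0.774), and the granule membrane gene Nkg7 was at 32.1 and 34.2. Perforin (Prf1) at 0.33 and 0.22, Eomes at 0.08 and 0.01, Tbx21 at 0.33 and 0.22 and Ncr1 at 0.20 and 0.08 were near 0, and the NK and innate lymphoid list summed to 116.2 and 112.1. Below the filter, the SLAM family receptor gene Cd244 was at 1.11 and 4.44 in NOD (4.0-fold, interval 3.11 to 5.22) and Cd160 at 0.75 and 2.73 (3.64-fold, interval 2.06 to 7.08).

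**Figure D3:**
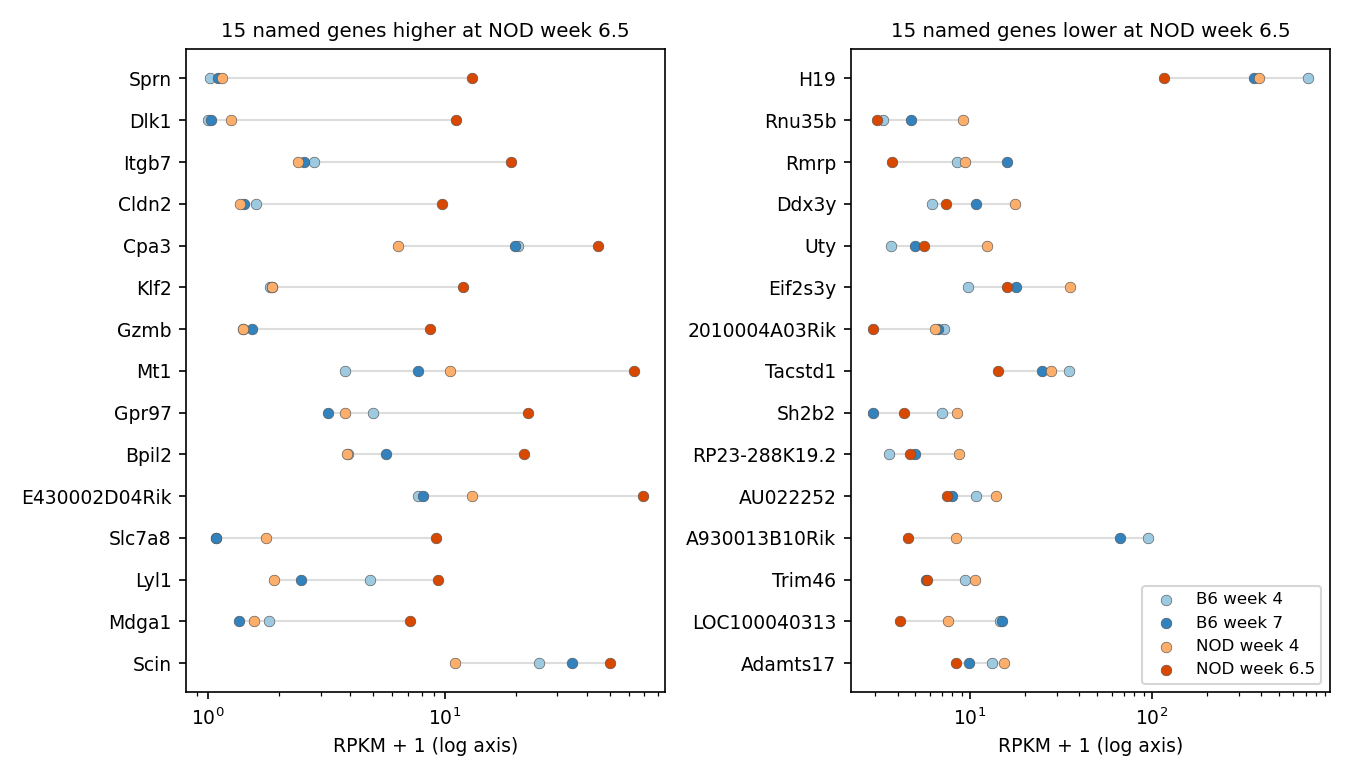
RPKM + 1 (log axis) in each of the 4 libraries for the 15 genes with the highest and the 15 with the lowest NOD ratios among genes with under 10% shared reads. In the left panel NOD week 6.5 (dark orange) is the highest point of every gene, from 6.12 for Mdga1 to 68.3 for E430002D04Rik before adding 1, while in the right panel several genes have a B6 library as low or lower.

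Cytoskeleton and cell shape genes, with Lgals1 and Emp3 placed beside them, formed a group of 8, with log2 ratios from 1.02 to 2.18. Scin, an actin-severing protein of the gelsolin family, was at RPKM 10.04 and 49.2 at NOD weeks 4 and 6.5 and at 24.1 and 33.7 in B6, so NOD week 4 was the low library (4.90-fold, interval 4.44 to 5.41). Flna, the actin crosslinker filamin A, was at 16.6 and 37.2 in NOD and 18.4 and 9.0 in B6 (2.24-fold in NOD, interval 2.14 to 2.35). Vim, the intermediate filament protein vimentin, was at 29.9 and 63.5 in NOD and 36.4 and 21.9 in B6. Lgals1, galectin 1, which binds glycans on thymocytes, was at 95.4 and 199 in NOD and 211 and 158 in B6, so its week 6.5 level lay within the B6 range. Tmsb10, a thymosin that binds actin monomers, was at 32.5 and 67.1 in NOD and 53.7 and 25.6 in B6, with 83% and 86% shared reads. Tes, a focal adhesion protein, was at 1.57 and 6.03, the tetraspan gene Emp3 at 10.3 and 22.8, and the kinesin gene Kifc3 at 2.31 and 8.49 in NOD. Actb, beta-actin, was at 580 and 750, a ratio of 1.29-fold. The calcium-binding gene S100a4, under the filter, was at 0.35 and 4.62 on 3 and 55 reads (13.2-fold, interval 4.27 to 65.7).

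The rest of the 59 fell into small groups. The cation pump genes Atp1b3, Atp2b4 and Atp13a2 lay between log2 ratios of 1.01 and 1.05. Cdkn2c, the cell cycle inhibitor p18-INK4c, was at RPKM 2.78 and 7.21 in NOD and 5.04 and 8.55 in B6 (2.59-fold in NOD, interval 1.91 to 3.59). It was the 1 past 2-fold among 22 tested cell cycle inhibitors and T-ALL suppressors, against 0.682% higher among all 8646 genes. Its relative Cdkn2a, the p16-INK4a and ARF gene, was listed at 0 in 3 libraries and at 0.26 (11 reads) at NOD week 6.5. Depdc6 (Deptor), an inhibitor of mTOR, was at 1.95 and 6.62 in NOD. BC018473 at 6.27 and 14.3 and Bex1 at 3.88 and 8.78 in NOD were at or under 0.27 in both B6 libraries, so here both NOD libraries stood above both B6 libraries. The same held for Gm266, at 5.18 and 19.8 in NOD and 1.38 and 0.56 in B6. Glipr1 was at 6.24 and 14.4 in NOD and 8.31 and 8.83 in B6. The last 8 were loci named by number only. In all 8 NOD week 4 was the lowest of the 4 libraries, against 32 of all 59 higher genes and 12.8% of all 8646 genes. That position too shares the NOD values with the ratio that chose the genes and supports nothing. The highest of the 8, LOC100040021 (Rpl9-ps7, a ribosomal protein pseudogene), was at 53.5 and 172 with 99% and 97% shared reads. All of the 8 except LOC100039883 (0% and 4%) had 79% or more shared reads at both NOD ages, and their values are uncertain for that reason.

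Xist and Tsix completed the 59. Xist, the RNA that coats the silenced X chromosome, had RPKM values of 20.2 and 77.9 at NOD weeks 4 and 6.5 and at 100 and 120 in B6, and Tsix, its antisense partner, at 2.39 and 6.84 against 9.54 and 11.3. The library protocol names no strand step, so reads of these overlapping genes could not be told apart. All 4 Y-linked genes went the other way and made up 4 of the 12 lower genes. Ddx3y was at 16.7 and 6.42 in NOD (0.386-fold, interval 0.348 to 0.427), Uty at 11.4 and 4.56, Eif2s3y at 34.3 and 15.0 and Jarid1d at 11.4 and 4.85. NOD week 4 therefore had the lowest Xist and the highest Y-linked values of the 4 libraries, and transcripts of both sexes were present in each. The labels give no sex, and the part of this difference in the other ratios was not tested.

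Globin genes were the lowest of the 12. Hba-a1 was at RPKM 29.6 (288 reads) at NOD week 4 and 4.12 (56 reads) at NOD week 6.5 (0.139-fold, interval 0.103 to 0.186) and at 23.4 and 5.92 at B6 weeks 4 and 7. Hbb-b1 was at 13.4 and 1.72 in NOD (0.129-fold, interval 0.0813 to 0.196) and 17.1 and 5.39 in B6. Both were lower at the later age in both strains, and both had 88% or more shared reads. The erythroid and megakaryocyte list summed to 69.39 and 37.10 in NOD and 67.56 and 37.34 in B6, while Klf1 and Slc4a1 were at or under 0.23 in both NOD libraries. In a bulk sample, fewer cells of a type and less RNA per cell cannot be told apart.

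Beside H19, the lower genes held 2 short RNAs that carry no poly(A) tail, Rmrp and Rnu35b (Snord35b). Rmrp, the RNA of the RNase MRP particle, was at RPKM 8.42 (40 reads) and 2.72 (18 reads) in NOD and at 7.46 and 15.07 in B6, and Rnu35b at 8.11 (14 reads) and 2.08 (5 reads), so both rest on few reads. 2010004A03Rik (Il34), a ligand of the receptor CSF1R, was at 5.39 and 1.92 in NOD and 6.18 and 5.67 in B6 (0.356-fold in NOD, interval 0.271 to 0.466). Erh and EG621967 had 95% or more shared reads. Further down, short of the mark, were the epithelial adhesion gene Tacstd1 (Epcam) at 26.8 and 13.2 in NOD (0.493-fold, interval 0.445 to 0.545) and the adaptor gene Sh2b2 at 7.49 and 3.35. The remaining 6 of the 15 lowest named genes, Trim46, Adamts17, AU022252, A930013B10Rik, RP23-288K19.2 and LOC100040313, had ratios from 0.475 to 0.518. The inhibitory receptor gene Ctla4 was at 8.13 and 4.05 in NOD and 35.0 and 44.8 in B6.

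The B6 libraries show which of the 2 NOD libraries stood out for each gene. These positions share the NOD values with the ratio that chose the genes, so they describe them and support nothing. NOD week 6.5 was the highest of the 4 libraries for 49 of the 59 higher genes, against 14.7% of all 8646 genes, and at least 2-fold above both B6 values for 27, against 2.46%. NOD week 4 was the lowest of the 4 for 32, against 12.8%, and at least 2-fold below both B6 values for 7, against 0.659%. Those 7 were Cpa3, Scin, Xist, Tsix, Pdgfrb, LOC624256 and LOC673582. NOD week 6.5 lay between the B6 values for 6 of the 59, against 45.8% of all genes: Lgals1, Emp3, Igh-6, Cdkn2c, Atp2b4 and LOC673582. Sprn, Dlk1, Itgb7, Klf2, Gzmb, Cldn2 and both metallothionein genes were thus high in 1 library against the other 3, while Scin, Xist and Igh-6 were low in NOD week 4. Of the 12 lower genes, NOD week 6.5 was the lowest of the 4 for 7, against 15.7%, at least 2-fold below both B6 values for 4, against 0.694%, and NOD week 4 the highest for 7, against 29.8%.

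**Figure D4:**
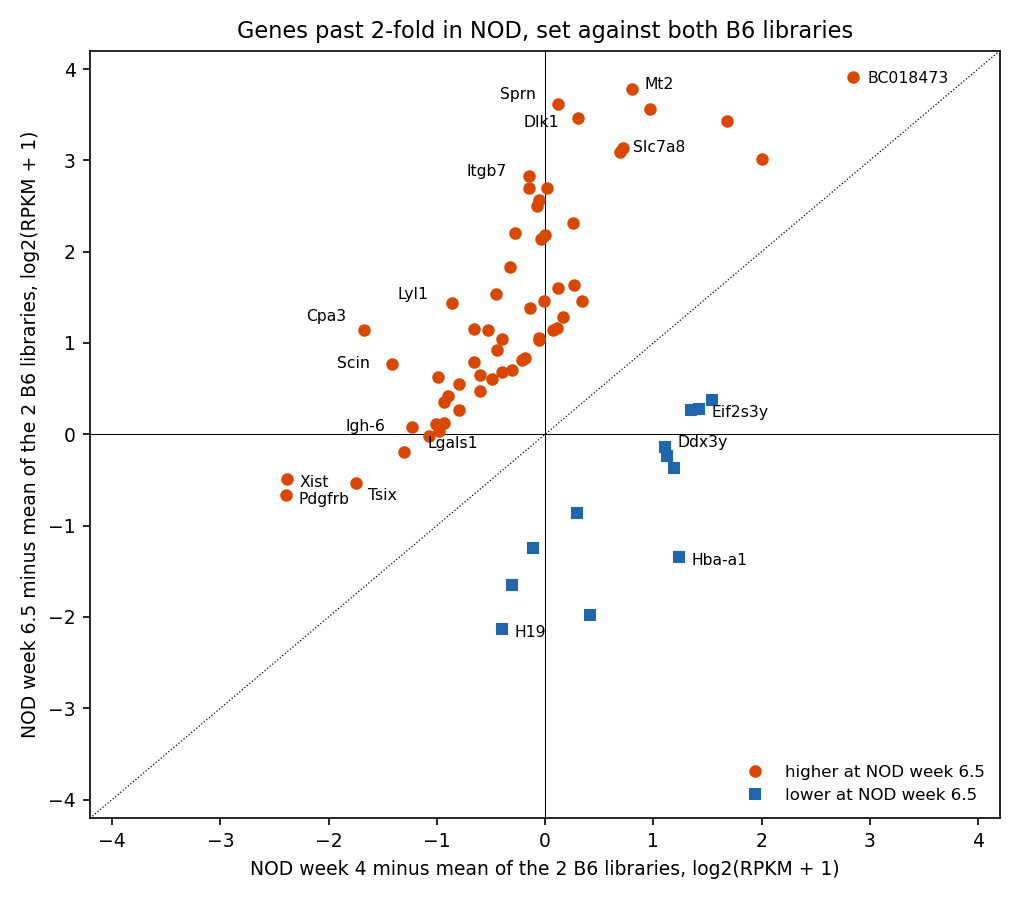
The 71 genes past 2-fold in NOD, with NOD week 4 (x axis) and NOD week 6.5 (y axis) each given as the difference from the mean of both B6 libraries in log2(RPKM + 1). Points near the vertical line and far above 0, such as Sprn and Itgb7, were at the B6 level at NOD week 4, and points far left of it, such as Xist, Pdgfrb and Scin, were below the B6 level at NOD week 4.

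Outside these genes, 36 gene lists were described by counts and medians. Of 877 different genes in the lists, 520 passed the filter and 21 were past 2-fold, and 23 lists had 0 members past it. Of all 8646 genes, 71 (0.821%) were past it, and since several lists were drawn up with such genes known, nothing is read from the 21. DNA replication genes were slightly but broadly higher in NOD. Of 43 tested G1/S members, 0 passed 2-fold and 41 lay above the all-gene median, the median log2 ratio was 0.17 (0.22 with the GC trend removed), and the interval of the ratio lay above 1 for 29 and below 1 for 1. Over all 8646 genes the interval lay above 1 for 1226 (14.2%) and below 1 for 2688 (31.1%). Cdc6, which loads the replicative helicase, was at RPKM 7.76 and 11.4 in NOD (1.47-fold, interval 1.34 to 1.61), with 24% shared reads at week 6.5, and the polymerase gene Pole at 9.05 and 12.9 (1.42-fold). Helicase subunit genes differed less, with Mcm3 at 62.2 and 75.5, Mcm6 at 116 and 136 and Mcm2 at 67.0 and 69.8. The chromatin gene Uhrf1 was the 1 with its interval below 1, at 179 and 156.

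The same list went the other way in B6. There the G1/S median was -0.93 as deposited and -0.53 with the GC trend removed, and 18 of 43 members were 2-fold lower as deposited and 1 with the GC trend removed. Mcm2 was at RPKM 77.2 and 30.8 and Mcm5 at 69.5 and 25.2 at B6 weeks 4 and 7, while Mcm5 was at 55.1 and 64.1 in NOD. Mitotic (G2/M) genes had a NOD median of 0.02 (0.07 with the GC trend removed) over 33 genes and a B6 median of -0.83 (-0.52) over 37, with 0 past 2-fold in NOD and, in B6, 12 lower as deposited and 1 with the GC trend removed. Top2a, the topoisomerase of dividing cells, was at 51.6 and 60.8 in NOD and 70.1 and 45.7 in B6. Glycolysis genes had medians of 0.17 in NOD and -0.28 in B6 with the GC trend removed, and genes of the ATF4 amino acid response 0.12 and -0.27. The difference between the strains in these lists was not tested.

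**Figure D5:**
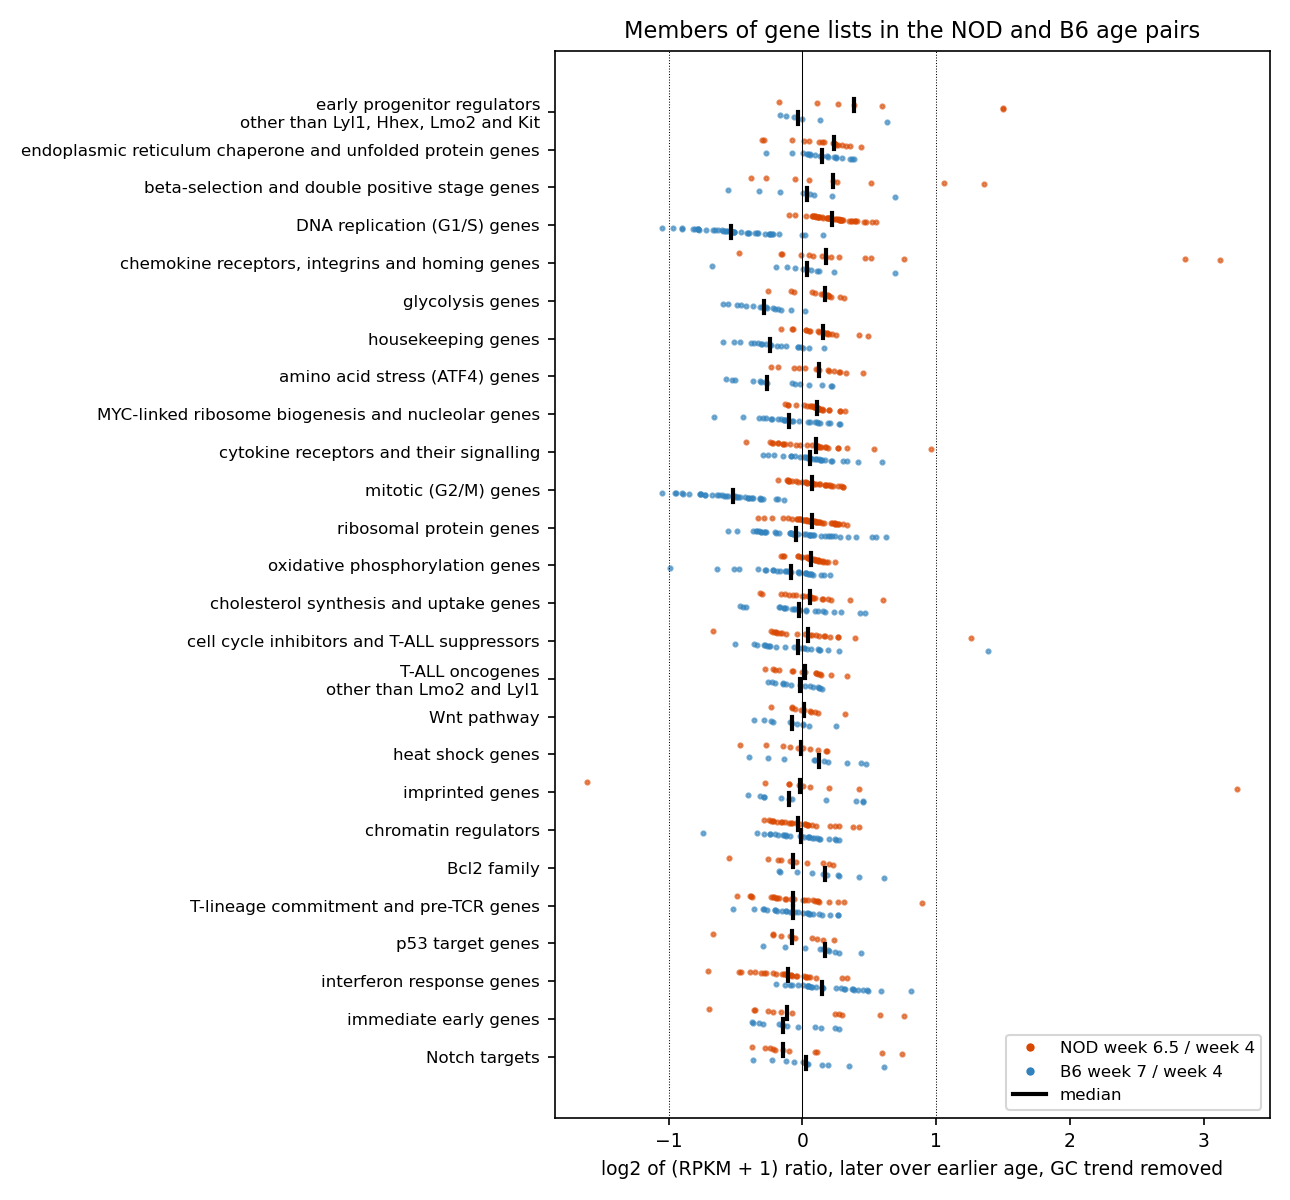
Log2 ratio of (RPKM + 1), later over earlier age, with the GC trend removed, for each tested member (points) and the median (black bar) of the 26 lists with 7 or more NOD members. The G1/S medians are 0.22 in NOD (orange) and -0.53 in B6 (blue), and the G2/M medians 0.07 and -0.52.

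Genes of T-lineage commitment and the pre-T-cell receptor were not past 2-fold in NOD, and 17 of 26 lay below the all-gene median (median log2 -0.15, 0 higher and 0 lower). Ptcra, the invariant chain of the pre-T-cell receptor, was at RPKM 318 and 224 at NOD weeks 4 and 6.5 (0.706-fold, interval 0.683 to 0.730) and at 279 and 173 in B6. Rag2 was at 30.4 and 20.9 and Cd3d at 624 and 459 in NOD. Bcl11b, at 98.8 and 82.9, and Gata3, at 23.2 and 19.2, were lower by under 1.5-fold, and Tcf7 was at 281 and 290. Zap70, the kinase of the T-cell receptor, stood apart on the higher side at 10.5 and 18.0 in NOD and 10.3 and 4.82 in B6 (1.72-fold in NOD, interval 1.53 to 1.94). At NOD week 6.5 the RPKM levels of Lck (495), Cd3d (459) and Bcl11b (82.9) remained well above those of Lyl1 (8.39) and Lmo2 (5.0).

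Notch targets split by gene. Of 11 tested, 0 were past 2-fold, the median log2 ratio was -0.26, and the interval lay below 1 for 8 and above 1 for 3, against 31.1% and 14.2% of all tested genes. Notch1 itself was at RPKM 317 and 249 in NOD (0.787-fold, interval 0.778 to 0.797), Notch3 at 174 and 127, and Myc at 80.7 and 65.5. The repressor gene Heyl was at 4.82 and 7.98 (1.66-fold, interval 1.46 to 1.87), and Ccnd3, cyclin D3, at 71.6 and 99.4 (1.39-fold, interval 1.33 to 1.45). Il2ra, the interleukin-2 receptor chain of the double negative stage, was at 492 and 531. With the GC trend removed the medians were -0.15 in NOD and 0.03 in B6.

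Interferon response genes were on the lower side in NOD, where 23 of 28 lay below the all-gene median, with 0 past 2-fold and a median log2 ratio of -0.16. The interval lay below 1 for 17 and above 1 for 2, against 31.1% and 14.2% of all tested genes. Oasl2, of the oligoadenylate synthetase family, was at RPKM 10.7 and 5.92 in NOD (0.553-fold, interval 0.489 to 0.628), and the regulator Irf7 at 10.2 and 6.52. With the GC trend removed the list median was -0.11 in NOD and 0.15 in B6. Among p53 targets, 0 of 11 were past 2-fold, and Cdkn1a, the inhibitor p21, was at 55.1 and 31.9 in NOD (0.579-fold, interval 0.540 to 0.621) and 32.3 and 19.01 in B6. In the Bcl2 family the pro-apoptotic gene Bmf was at 18.7 and 11.6 and Bcl2 itself at 14.2 and 11.5.

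Endoplasmic reticulum chaperone genes lay on the higher side, with a median of 0.13 over 19 genes, 0 past 2-fold, Calr (calreticulin) at RPKM 147 and 191 and Hspa5 (BiP) at 74.1 and 94.7 in NOD, while the regulator Xbp1 was at 83.8 and 64.8. Of the cytokine receptors, Il10ra was at 4.13 and 8.41 (2.04-fold, interval 1.76 to 2.37), under the mark on the log2(RPKM + 1) scale, and the shared chain Il2rg at 62.2 and 87.6. The interferon-gamma receptor gene Ifngr1 was at 128 and 92.3. Il4ra, under the filter, was at 0.26 and 1.86. Immediate early genes had a median of -0.19, with the phosphatase gene Dusp5 at 8.24 and 13.4, Jun at 12.47 and 8.65 and Zfp36l1 at 26.9 and 15.7. Medians of ribosomal protein genes (-0.01 over 44), oxidative phosphorylation genes (0.02 over 30), T-ALL oncogenes other than Lmo2 and Lyl1 (-0.08 over 15), chromatin regulators (-0.11 over 26), Wnt pathway genes (-0.08 over 11), cholesterol genes (-0.03 over 23), heat shock genes (-0.05 over 10), ribosome biogenesis genes (0.04 over 27), histone genes (-0.34 over 3) and housekeeping genes (0.07 over 19) came with 0 members past 2-fold in NOD. Myeloid and dendritic markers summed to 49.83 and 39.95 in NOD and to 53.17 and 41.59 in B6. Of these 31 markers, 25 were under RPKM 1 at both NOD ages, as were most of the 33114 named genes.

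Genes below the filter held further large ratios on few reads. With an RPKM of 1 or more in place of 5, 90 genes were higher and 16 lower in NOD. Clec4e, a C-type lectin of myeloid cells, was at RPKM 0.21 and 3.43 in NOD (16.3-fold, interval 8.56 to 36.8), and Trib2, a pseudokinase oncogene of leukaemia, at 0.66 and 3.24 (4.91-fold, interval 3.61 to 6.78). The interleukin-31 receptor gene Il31ra was at 0.47 and 2.40, the collagen chaperone gene Serpinh1 at 0.51 and 2.35, and the B-cell kinase gene Btk at 1.21 and 3.42. Sfpi1 (Spi1), which encodes the progenitor and myeloid factor PU.1, was at 0.30 and 1.44 on 7 and 46 reads (4.80-fold, interval 2.11 to 12.4). On the lower side was Ndg1 (Khdc1a), at 3.18 and 0.95, against 102 and 167 in B6, with 72% shared reads at NOD week 6.5.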

How the data were processed

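Polyadenylated RNA of sorted Rag1-/- thymocytes was sequenced in 1 library per strain and age. Reads were aligned with Bowtie 0.12.1 to build mm9, per the submitters' processing notes, and the deposited tables give RPKM values and the share of shared reads for each gene. The counting program is not given in the sources used here. The tables hold no counts: depth was recovered from the whole-read steps of genes of at most 0.6 kb, of which 98.82% to 100% lay within 0.1 reads of a whole number (20% by chance). Read numbers and exact intervals follow from that depth and cover counting error only, and 3 reads correspond to RPKM 0.174 at NOD week 4 and 0.124 at week 6.5 for a gene of 1 kb. The median share of shared reads over tested genes was 3% at NOD week 6.5 and 0% in the other libraries. Of the tested genes, 58.6% had a share of 0% at NOD week 4, but 0.335% did at NOD week 6.5. A share of 10% or more was found for 27.5% of genes at NOD week 6.5 and 25.4% at week 4. Whether both NOD libraries were aligned and counted alike was not tested.

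Ratios were taken on log2(RPKM + 1), for genes that reached RPKM 5 in at least 1 library of a pair, with Python 3.11.15, pandas 2.3.3 and scipy 1.17.1. The code was tested on simulated data. The GC content of a gene came from its longest GENCODE M21 transcript, for 89% of tested NOD genes and 83.1% of those past 2-fold, and the trend was removed as a running median over 501 genes. Promoters came from a RefSeq table (GRCm38.p6), 1 start per gene. Of 959 list entries, 945 were matched. Named were the 15 highest and 15 lowest genes with under 10% shared reads, up to 4 members per list, and members needed for roles; others were chosen after their values were seen. The members and lists were chosen with earlier results of these data known. Other pseudocounts, filters and scalings were tried. A few list members are not reported here.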

Additional observations from a re-analysis of the deposited data

Results flagged for a closer look

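For 2 genes the NOD and B6 age ratios were each past 2-fold in opposite directions, with 1 library behind every value, and the difference was not tested. Tmsb10 had a log2 ratio of 1.02 at NOD week 6.5 over week 4 and of -1.04 at B6 week 7 over week 4, and with the GC trend removed of 1.18 and -0.31. Atp13a2, a lysosomal cation pump gene, had log2 ratios of 1.05 and -1.03, and of 1.23 and -0.22 with the GC trend removed. Without that trend, neither of these B6 ratios was past 2-fold. With the trend removed, Rmrp was past 2-fold in opposite directions, with log2 ratios of -1.16 in NOD and 1.74 in B6, against -1.34 and 0.93 as deposited.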

How the results depend on the processing

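No paired analysis was possible because each group held 1 library, and for the same reason no replicate could be left out. The NOD count of 59 higher genes was 30 with a pseudocount of 5, 90 with an RPKM of 1 or more and 90 with no filter, and lay between 43 and 67 under the other alternatives. The NOD count of 12 lower genes was 19 with a pseudocount of 0.1, 5 with a pseudocount of 5, 7 with under 10% shared reads, and between 10 and 16 otherwise. With intervals wholly past 2-fold, 43 of the 59 and 10 of the 12 remained. The B6 count of 12 higher genes was 1 with a pseudocount of 5, 27 with an RPKM of 1 or more, 27 with no filter, 5 with under 10% shared reads, 72 with the median ratio set to 0, 71 with upper quartile scaling, 61 with the length trend removed and 4 by interval. The B6 count of 328 lower genes was 499 with a pseudocount of 0.1, 112 with a pseudocount of 5, 53 with the median ratio set to 0, 56 with upper quartile scaling, 56 with the length trend removed, 15 with the GC trend removed and 201 by interval. The count of 416 genes whose NOD and B6 ratios lay 2-fold apart was 177 with a pseudocount of 5, 661 with no filter, 255 with under 10% shared reads, 204 with the median ratio set to 0, 218 with upper quartile scaling, 203 with the length trend removed and 93 with the GC trend removed. The cause was not tested. The alternatives for this last count and the GC trend were chosen after seeing the data. No named gene past 2-fold in NOD changed direction under these alternatives. Of the recomputed NOD ratios of named genes, 1176 stayed within their counting error and 128 did not, and of the recomputed NOD list medians 312 stayed within the spread of their members and 12 did not. Depth limits genes at a few reads, such as Rnu35b at 14 and 5 reads.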
